A study of Homo sapiens with 60 samples.

Results

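The genes described here encode the mitochondrial ribosomal proteins: the protein-coding genes whose symbols begin with MRPL or MRPS and a digit. GENCODE 29 lists 78 of them among the 60675 gene identifiers measured, of which 19693 were protein-coding. They were measured by RNA sequencing in 60 libraries of 25 groups. The cells were A549, a long-established line from a human non-small cell lung carcinoma, exposed for 24 h to 1 of 8 herbal extracts or to vehicle. Levels are CPM, each gene's count relative to its library's total, with totals scaled by trimmed mean of M values (TMM) factors.

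Polygalae Radix at 380, 76 and 15.2 µg/mL had 1 library per dose, and so had Aucklandiae Radix at 370, 74 and 14.8 µg/mL. Both are ethanol extracts of library set 11. The decoctions Soshiho-tang and Yijin-tang, water extracts of set 8, were used at 500, 100 and 20 µg/mL with 2 and 3 libraries per dose. Liriopis seu Ophiopogonis Tuber and Schisandrae Fructus (set 9) and Longan Arillus and Zizyphi Semen (set 10), all ethanol extracts, were used at the same 3 doses with 3 libraries each. The vehicle was dimethyl sulfoxide, at 0.1% per the sample labels and 2% per the series text, in 3 libraries of set C1. The labels give no dimethyl sulfoxide percentage for the extract libraries, so whether their solvent matched vehicle is not known here. High, medium and low stand for these doses below. A set here is the first field of the library names; the labels do not say whether it marks a preparation or a sequencing run, and the titles name 1 batch for all 60. Only vehicle has set C1, so set and extract cannot be told apart in any comparison with vehicle, whereas the doses of an extract lie within 1 set. Whether replicates came from separate cultures is not stated, so the spread behind each p-value is that between libraries and may be technical.

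Mitochondria keep a ribosome of bacterial descent, the mitoribosome, which translates only the messages of mitochondrial DNA, all for subunits of the respiratory chain and ATP synthase. Its rRNAs are transcribed in the mitochondrion, but every one of its proteins is encoded in the nucleus, made in the cytosol and imported. Part of these proteins have bacterial counterparts and part were added in mitochondria. Of the 78 genes, 30 encode large-subunit proteins shared with bacteria, 21 large-subunit proteins specific to mitochondria (MRPS30 and MRPS18A among them, despite their names), 16 small-subunit proteins shared with bacteria and 10 small-subunit proteins specific to mitochondria. The 78th, MRPS36, belongs to the alpha-ketoglutarate dehydrogenase complex rather than to the mitoribosome.

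Nuclear genes for mitochondrial proteins are known for compact promoters with sites for NRF1, for ETS-family factors such as GABPA, and for YY1. RefSeq promoters (GRCh38.p14, 250 bases before to 50 after the start) matched 69 of the 78 genes by symbol. The ETS letters CCGGAAG, searched on both strands, were in 29 of the 69 (42%), against 14.5% of 14837 protein-coding promoters of the same 300 bases. The YY1 letters ATGGCGGC were in 19 (27.5%), against 4.62%, and lay after the start in 17 of the 19 (89.5%), against 65.5% of the protein-coding promoters that held them. They were on the gene's own strand in 17 of the 19, against 467 of the 685 protein-coding promoters that held them. The letters begin with ATG, and whether they lie in coding sequence was not tested. The NRF1 core GCGCATGC was in 6 (8.7%), against 4.33%, and the E-box CACGTG was in 6 (8.7%), against 8.95%. These are matches of letters and not sites shown to be used; 5 promoters held both the ETS and the YY1 letters. The 5 promoters below belong to 4 of the 5 genes most often called lower than vehicle (MRPS12, MRPL51, MRPL17 and MRPL33), and to MRPL50, which stood furthest above vehicle in the library where the summed level was lowest. Capitals mark the ETS letters in MRPS12 (chr19:38930694-38930993, plus strand) and MRPL51 (chr12:6493213-6493512, minus strand) and MRPL33 (chr2:27771469-27771768, plus strand), the NRF1 core in MRPL17 (chr11:6683291-6683590, minus strand), where 2 of 3 matches overlap on opposite strands, and the YY1 letters in MRPL50 (chr9:101398569-101398868, minus strand).
MRPS12: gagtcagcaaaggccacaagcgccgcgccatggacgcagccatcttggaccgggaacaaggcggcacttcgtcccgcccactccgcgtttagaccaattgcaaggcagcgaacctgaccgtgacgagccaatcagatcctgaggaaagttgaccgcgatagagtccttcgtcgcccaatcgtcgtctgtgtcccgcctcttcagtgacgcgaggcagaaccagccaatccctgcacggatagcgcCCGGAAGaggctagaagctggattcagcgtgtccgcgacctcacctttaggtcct
MRPL51: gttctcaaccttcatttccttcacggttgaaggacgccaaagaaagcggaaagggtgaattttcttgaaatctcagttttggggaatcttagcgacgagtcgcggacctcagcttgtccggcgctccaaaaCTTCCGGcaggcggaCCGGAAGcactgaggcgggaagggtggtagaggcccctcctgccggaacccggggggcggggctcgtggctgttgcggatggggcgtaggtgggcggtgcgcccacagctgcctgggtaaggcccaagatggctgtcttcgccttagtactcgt
MRPL17: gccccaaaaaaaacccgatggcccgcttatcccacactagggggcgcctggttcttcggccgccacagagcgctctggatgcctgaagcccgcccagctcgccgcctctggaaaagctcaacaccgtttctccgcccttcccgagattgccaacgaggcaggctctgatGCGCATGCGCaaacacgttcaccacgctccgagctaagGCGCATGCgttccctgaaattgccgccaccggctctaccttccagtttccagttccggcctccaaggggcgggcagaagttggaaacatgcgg
MRPL33: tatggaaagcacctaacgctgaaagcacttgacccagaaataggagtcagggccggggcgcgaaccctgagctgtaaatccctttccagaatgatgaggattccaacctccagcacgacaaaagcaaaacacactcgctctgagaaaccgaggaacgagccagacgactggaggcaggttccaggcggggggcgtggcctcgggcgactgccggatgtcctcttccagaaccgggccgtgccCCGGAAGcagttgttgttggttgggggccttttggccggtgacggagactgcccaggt
MRPL50: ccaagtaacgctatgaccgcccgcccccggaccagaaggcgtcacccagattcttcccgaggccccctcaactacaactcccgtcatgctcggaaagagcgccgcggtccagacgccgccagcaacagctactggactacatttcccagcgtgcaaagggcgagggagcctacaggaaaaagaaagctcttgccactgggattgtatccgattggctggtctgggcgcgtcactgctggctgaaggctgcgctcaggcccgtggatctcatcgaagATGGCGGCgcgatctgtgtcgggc
Of these, MRPL51 held the ETS letters on both strands, MRPS12 held them across the start and MRPL33 just before it, and MRPL50 held the YY1 letters after it.

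Library totals were 18.003 to 33.832 M counts. The values below leave out 2 libraries that stood apart, except where they are named. Replicate 3 of Soshiho-tang medium had 5989 CPM over the 78 genes and replicate 3 of Longan Arillus low had 7834 CPM, against 3509 to 3915 CPM in the 52 other libraries of replicated groups. They stood apart beyond the members too. In Soshiho-tang medium replicate 3, over protein-coding genes of at least 10 CPM, the log2 ratio to vehicle changed by -0.451 per doubling of transcript length. In the 52 other libraries this slope was -0.099 to 0.053. In the 58 libraries kept, keratins and the other epithelial markers summed to 1316 to 8803 CPM, the lowest in Polygalae Radix high. In vehicle the sum was mainly KRT8, KRT18 and KRT7, with EPCAM at 4.57 CPM. Leukocyte markers summed to 4.52 to 32.6 CPM, mainly CD68 (12.3 CPM in vehicle) and CD14 (2.08 CPM in vehicle). PTPRC reached no more than 0.0848 CPM and CD3E no more than 0.0705 CPM. Endothelial markers summed to 0.0442 to 0.520 CPM. Fibroblast markers summed to 17.3 to 42.9 CPM and neural markers to 71.7 to 122 CPM, mainly SYT1 and SNAP25 (45.3 and 47.4 CPM in vehicle), and hepatocyte markers to 0.0711 to 1.10 CPM. In bulk RNA, fewer cells of a kind and less RNA per cell cannot be told apart.

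All 78 genes were expressed in vehicle and passed the filter on low counts, from 8.64 CPM for MRPL54 to 138 CPM for MRPS35. Per kilobase of exon, MRPL12, the stalk protein that binds translation factors, was highest, with 126.9, 125.2 and 131.9 CPM per kb in the vehicle libraries. MRPL51 followed at 87.7 ± 2.28 CPM per kb and MRPS35 at 69.8 ± 2.50 (SD, n = 3), whose ranges did not overlap. The lowest were MRPS22 at 4.598 ± 0.146, MRPL42 at 4.55 ± 0.169 and MRPS18C at 4.32 ± 0.181 CPM per kb (SD, n = 3), and these neighbours did overlap. By the longest coding transcript in place of all exons, MRPL12 and MRPL51 kept ranks 1 and 2, while MRPS22 and MRPS18C moved to ranks 58 and 66. The medians per kb were 17.3 CPM for large-subunit proteins shared with bacteria, 17.4 for large-subunit proteins specific to mitochondria, 15.6 for small-subunit proteins shared with bacteria and 13.0 for small-subunit proteins specific to mitochondria. By the longest coding transcript these medians were 31.0, 24.1, 25.5 and 27.3 CPM per kb, so the order of the roles depends on the length used. The genes are spread over 21 chromosomes. Overlap with exons of other genes was common (41 of 78, 34 with a protein-coding gene), so that counts of those genes depend on how reads were assigned, which the sources used here do not give by strand. The 77 pseudogenes and antisense genes with MRPL or MRPS symbols summed to only 7.47 CPM in vehicle, and 3 of them exceeded 1 CPM.

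In the 6 replicated extracts the summed level of the 78 genes was 92.4% to 97.3% of vehicle. The highest group mean was that of vehicle, with 3841, 3868 and 3810 CPM. Of the replicated groups Soshiho-tang high was lowest, with 3531 and 3564 CPM, or 92.4% of the vehicle mean. The other group means lay between 93.0% (Zizyphi Semen medium) and 97.3% (Yijin-tang medium) of vehicle, and 1 library of Yijin-tang medium (3858 CPM) lay within the vehicle range and 1 of Schisandrae Fructus medium (3915 CPM) above it. The 2 unreplicated extracts reached lower: Polygalae Radix stood at 3477, 3516 and 2726 CPM from the low to the high dose, and Aucklandiae Radix at 3761, 3680 and 3352 CPM. No library of these 6 reached the lowest vehicle library.

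**Figure D1:**
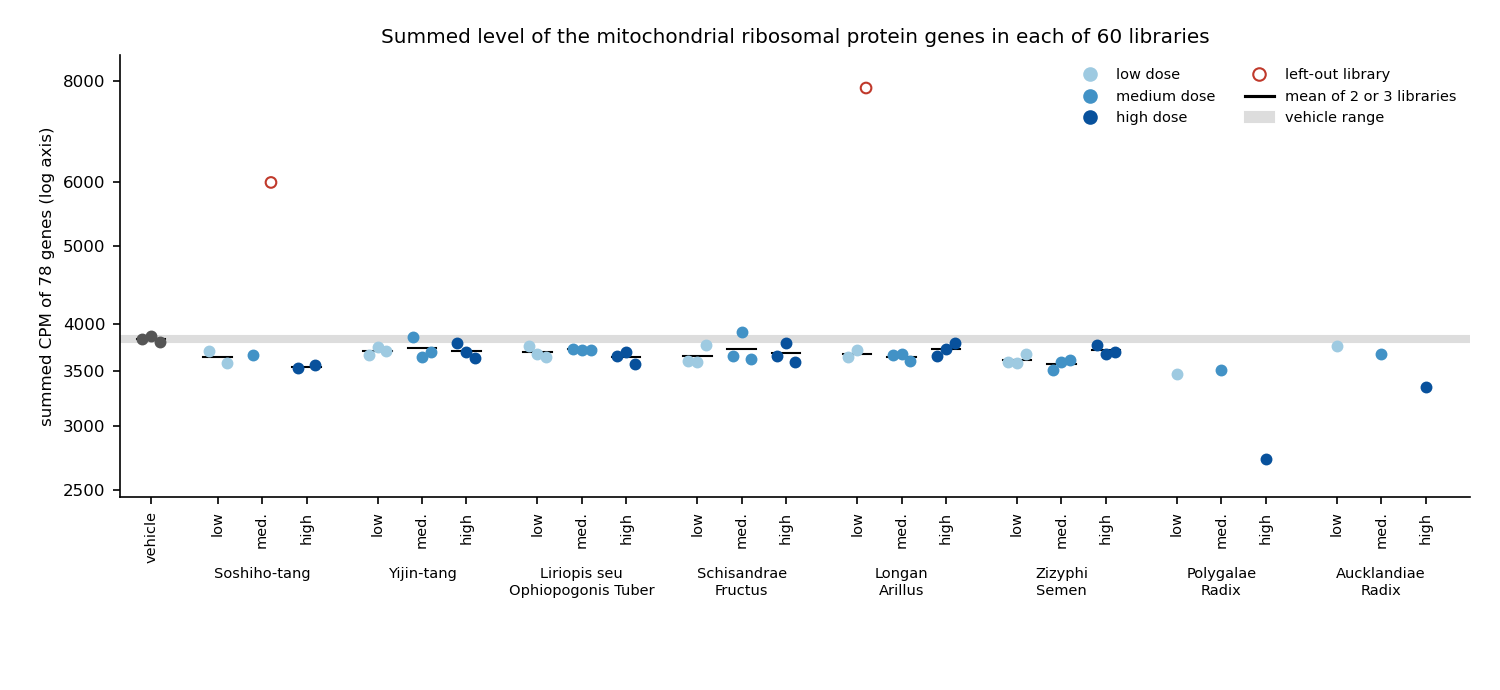
Summed CPM of the 78 genes (log axis) in each library, by extract and dose, with vehicle at the left; lines are means of 2 or 3 libraries and the grey band is the vehicle range. Polygalae Radix high is lowest at 2726 CPM, and the 2 left-out libraries are highest at 5989 and 7834 CPM.

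Against vehicle, calls were made with edgeR's quasi-likelihood test at a Benjamini-Hochberg adjusted p under 0.05 over the 18228 genes tested, in 52 libraries fitted together. Of the 78 genes, 37 fell in at least 1 of 12 comparisons (6 extracts, high and low dose), 8 rose in at least 1, 1 did both, and 34 did neither. The same counts over all genes tested were not taken, so whether these are more than other genes show was not tested. In a single comparison 2.13% to 14.6% of all genes fell. All 12 comparisons share the same 3 vehicle libraries and are not independent. MRPS12 (ENSG00000128626, chr19:38930548-38933162, plus strand), a counterpart of the bacterial S12 protein of the decoding centre, fell in 12 of 12. MRPL13 (ENSG00000172172, chromosome 8) and MRPL51 (ENSG00000111639, chr12:6491886-6493841, minus strand) fell in 10 each. MRPL17 (ENSG00000158042, chr11:6680782-6683401, minus strand) and MRPL33 (ENSG00000243147, chr2:27771717-27988087, plus strand) fell in 8 each. MRPL13, MRPL17 and MRPL33 have bacterial counterparts in the large subunit, and MRPL51 is specific to mitochondria.

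MRPS12 had 115.2, 118.1 and 115.8 CPM in vehicle. Its highest extract library was Liriopis seu Ophiopogonis Tuber low replicate 1, at 111.2 CPM, so none of the 55 extract libraries kept reached vehicle. At the high doses it had 90.46 and 89.7 CPM with Soshiho-tang, 105.6, 98.01 and 92.44 with Yijin-tang, 93.65, 101.8 and 89.65 with Liriopis seu Ophiopogonis Tuber, and 107.5, 108.8 and 94.72 with Schisandrae Fructus. Longan Arillus high gave 92.52, 98.02 and 91.56 CPM, and Zizyphi Semen high 95.73, 93.57 and 88.78. The log2 fold changes for MRPS12 at the high doses ran from -0.17 (SE 0.05; Schisandrae Fructus, adjusted p = 0.0435 in edgeR) to -0.37 (SE 0.06; Soshiho-tang, adjusted p = 1.17e-05). At the low doses the log2 fold changes for MRPS12 ran from -0.19 with Liriopis seu Ophiopogonis Tuber to -0.39 with Zizyphi Semen. Every one of the 12 differences had the same sign, and in 7 of the 12 the call held whichever library was left out. It was lost at Yijin-tang high without high replicate 3 (adjusted p = 0.0597), at Yijin-tang low without low replicate 1 (0.0558) and at Soshiho-tang low without low replicate 2 (0.104). At Schisandrae Fructus high it was lost without any library but high replicate 2, up to an adjusted p of 0.333 without high replicate 3, and at Liriopis seu Ophiopogonis Tuber low without any library but low replicate 1, up to 0.286 without low replicate 3. MRPS12 overlaps an exon of SARS2 on the opposite strand.

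MRPL13 had 22.33 and 23.7 CPM at Soshiho-tang high, against 29.27, 30.75 and 31.67 CPM in vehicle, a log2 fold change of -0.41 (SE 0.06, adjusted p = 5.93e-07 in edgeR). MRPL13 at Zizyphi Semen low was 23.16, 24.47 and 22.53 CPM, a log2 fold change of -0.39 from the same vehicle libraries. Neither of these groups overlapped vehicle. MRPL51 had 97.67 and 110.7 CPM at Soshiho-tang high and 113.8, 115.2 and 116.0 CPM at Zizyphi Semen high, against 137.1, 138.8 and 132.0 CPM in vehicle. At Schisandrae Fructus high, one of the 2 comparisons in which MRPL51 did not pass the test, it had 120.9, 132.9 and 119.5 CPM and overlapped vehicle. MRPL33 had the widest range of group means among members of at least 10 CPM (0.539 on the log2 scale, 23.2 CPM at Zizyphi Semen medium against 33.8 CPM in vehicle), followed by MRPS12 (0.464) and MRPS26 (0.436). The narrowest were MRPL46 (0.080), MRPL10 (0.099) and MRPS10 (0.113), over the same 18 groups. MRPL46 averaged between 29.04 and 30.7 CPM in all of them. MRPL13 overlaps an exon of MTBP and MRPL51 one of NCAPD2, both on the opposite strand, and MRPL33 overlaps BABAM2 on its own strand, while MRPL17 overlaps none.

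**Figure D2:**
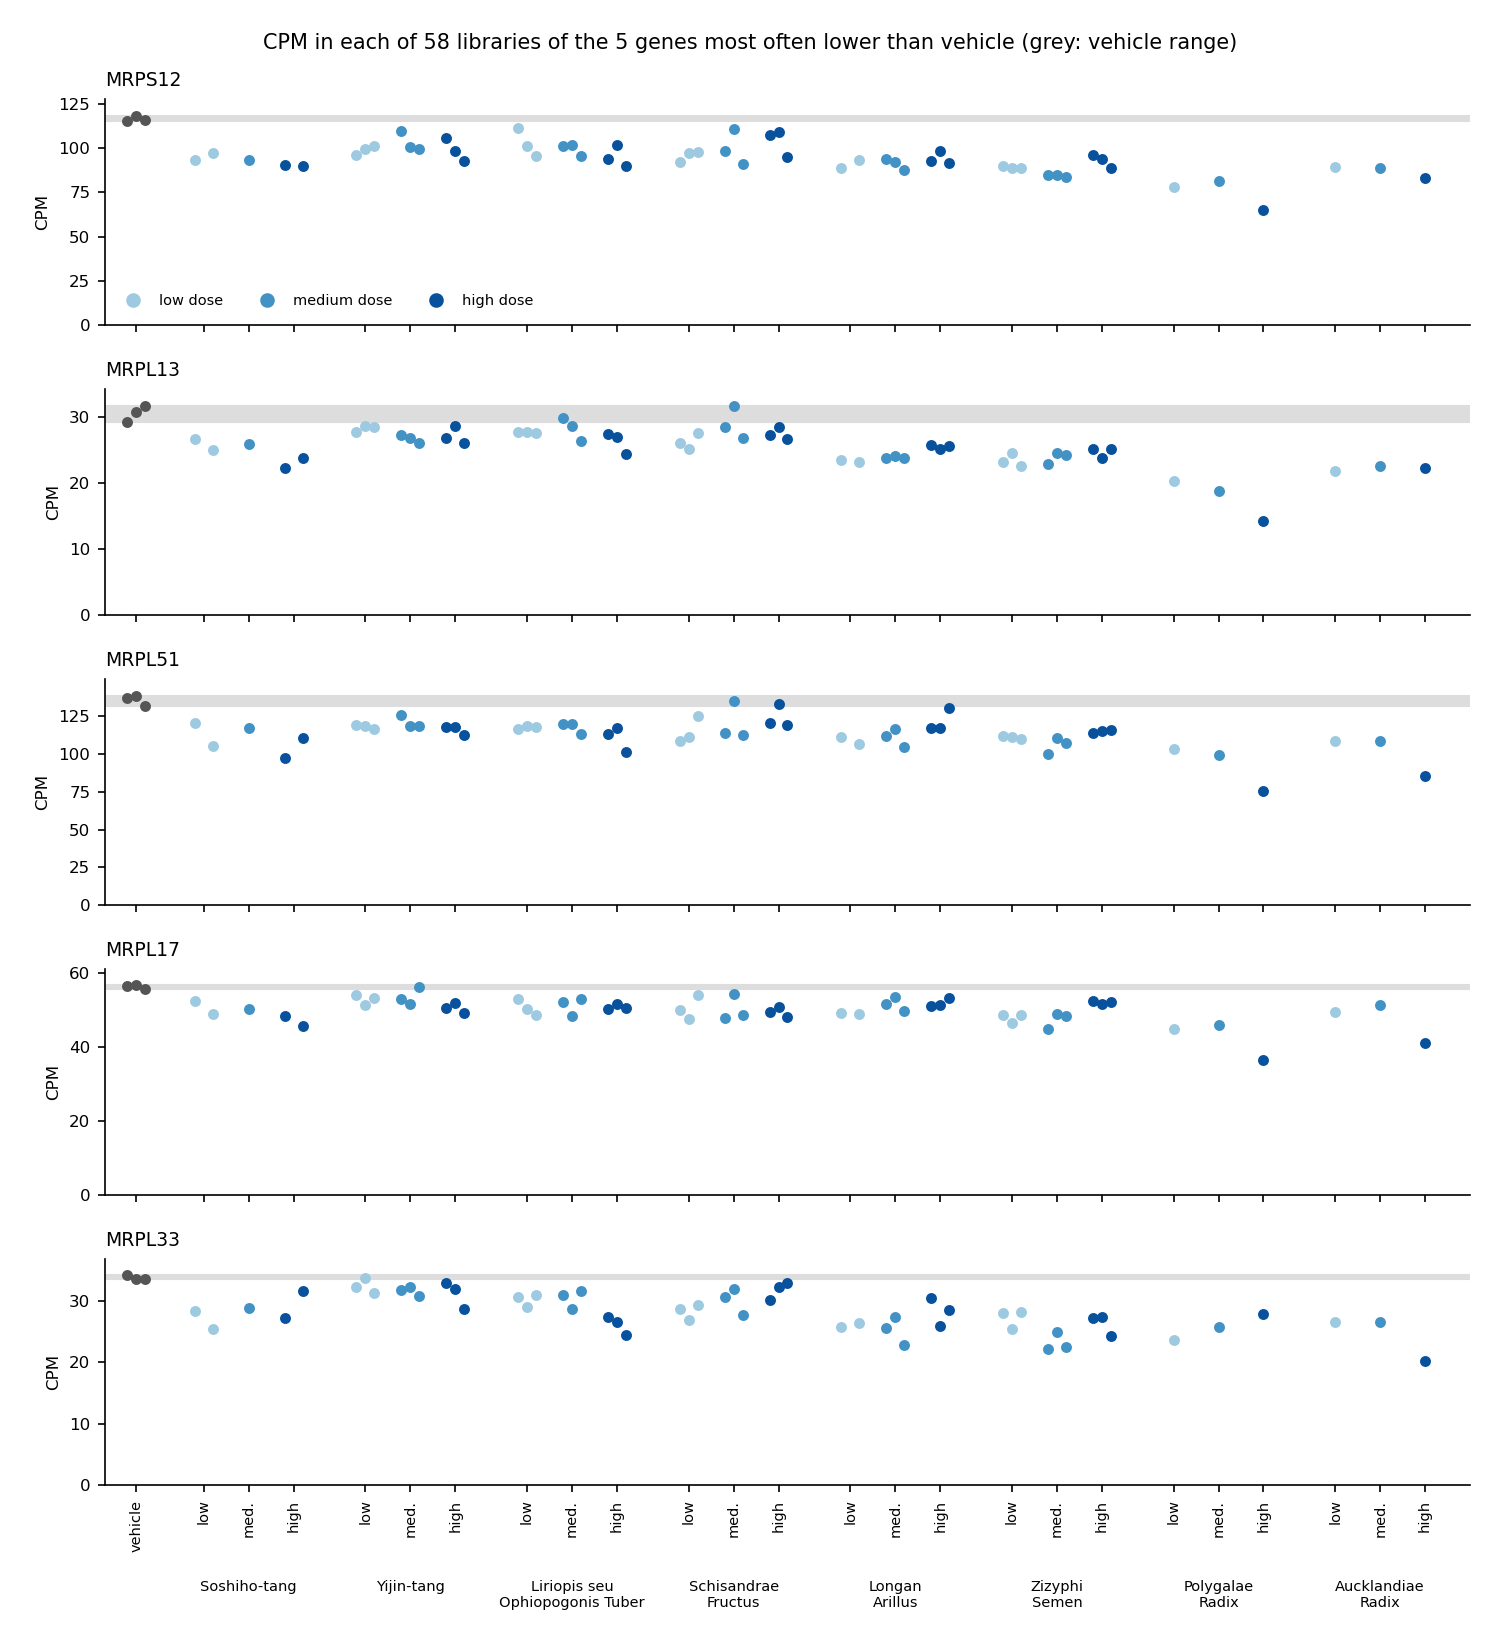
CPM of MRPS12, MRPL13, MRPL51, MRPL17 and MRPL33 in each of 58 libraries, by extract and dose, with vehicle at the left; the grey band is the range of the 3 vehicle libraries. All 55 extract libraries lie under the band for MRPS12. The exceptions for the others are MRPL13 at medium doses of Liriopis seu Ophiopogonis Tuber (29.81 CPM) and Schisandrae Fructus (31.56 CPM), MRPL51 at Schisandrae Fructus medium (135.0 CPM) and high (132.9 CPM), MRPL17 at Yijin-tang medium (56.18 CPM) and MRPL33 at Yijin-tang low (33.65 CPM).

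Soshiho-tang is a decoction of several herbs. At its high dose 25 of the 78 genes fell (32.1%) beside 11.3% of all genes tested, and 1 rose beside 10.2%. Among the 9438 tested genes of at least 10 CPM in vehicle, a level nearer to that of the members, 20.1% fell and 13.8% rose. The median log2 fold change of the members was -0.107, against 0.000 over all genes tested, and 67 of the 78 were below 0. The fall took in 12 of 30 large-subunit proteins shared with bacteria (median -0.146), 7 of 16 small-subunit proteins shared with bacteria (-0.148), 4 of 10 small-subunit proteins specific to mitochondria (-0.106) and 2 of 21 large-subunit proteins specific to mitochondria (-0.055). After MRPL13, the largest falls were MRPL51 (-0.39), MRPL14 (-0.38), MRPS12 (-0.37), MRPS6 (-0.35) and MRPS25 (-0.30). MRPL14 had 16.22 and 17.11 CPM at Soshiho-tang high, against 22.57, 21.8 and 20.58 CPM in vehicle. MRPL45, by contrast, rose to 66.38 and 67.54 CPM at Soshiho-tang high, against 62.26, 59.34 and 59.24 CPM in vehicle. The count of calls dropped to 12 without Soshiho-tang high replicate 2 and to 17 without replicate 3. At an unadjusted p under 0.05 there were 35 of 78 members in either direction, and DESeq2 called 24 lower and 1 higher. Over the 18228 genes tested, 5765 had such a p at Soshiho-tang high and 2748 at Soshiho-tang low. At Soshiho-tang low, 6 fell (7.69%) beside 2.13% of all genes and 3.97% of those of at least 10 CPM, and 0 rose beside 0.922%, and without low replicate 3 that became 1, without low replicate 2 or vehicle replicate 3 it became 3; 23 had an unadjusted p under 0.05, and DESeq2 called 8 lower and 0 higher.

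The same set held Yijin-tang, the other decoction. At its high dose 5 genes fell (6.41%) beside 4.13% of all genes, namely MRPS12, MRPL51, MRPL13, MRPL17 and MRPS35, with log2 fold changes of -0.24 to -0.11, and 0 rose beside 3.04%. Among genes of at least 10 CPM 7.28% fell, close to the share of the members. At the low dose MRPS12 (-0.24) and MRPL51 (-0.20) fell, 2.56% beside 2.16% of all genes and 3.86% of those of at least 10 CPM, and 0 rose beside 1.45%. Both counts were small enough to depend on single libraries: at the high dose the count was 0 without Yijin-tang high replicate 3, 1 to 3 without any vehicle library and 3 without Yijin-tang high replicate 1, and at the low dose it was 0 without Yijin-tang low replicate 1 and 1 without any other library. At an unadjusted p under 0.05 there were 16 of 78 members at the high and 12 at the low dose. These shares were close to those of all genes, 3606 and 2893 of the 18228 tested. DESeq2 called 5 lower and 0 higher at the high dose, and 3 lower and 1 higher at the low dose.

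With Liriopis seu Ophiopogonis Tuber high, 11 genes fell (14.1%) beside 4.65% of all genes and 8.29% of those of at least 10 CPM, and 0 rose beside 2.62%. MRPL33 led, at 27.3, 26.6 and 24.41 CPM, against 34.15, 33.54 and 33.56 CPM in vehicle (log2 fold change -0.37, SE 0.07, adjusted p = 0.000218 in edgeR). The groups did not overlap. MRPL51 (-0.30), MRPS12 (-0.30), MRPL14 (-0.26), MRPL13 (-0.22) and MRPS23 (-0.20) followed. Without Liriopis seu Ophiopogonis Tuber high replicate 3 the count was 3. At the low dose 4 fell (5.13%) beside 2.35% of all genes and 4.22% of those of at least 10 CPM, MRPL52 (-0.21) among them, and 0 rose beside 1.54%. The low-dose calls were all lost without any 1 vehicle library or without low replicate 2 or 3. At an unadjusted p under 0.05 there were 25 of 78 members at the high and 19 at the low dose, beside 3602 and 2968 of the 18228 genes tested. DESeq2 called 11 and 4 lower and 0 higher.

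With Schisandrae Fructus high, 8 fell (10.3%) beside 4.92% of all genes and 8.37% of those of at least 10 CPM, and 0 rose beside 4.23%. MRPS25, a small-subunit protein specific to mitochondria, led at -0.24 (SE 0.05, adjusted p = 0.000222 in edgeR), with 43.28, 44.5 and 40.81 CPM at Schisandrae Fructus high, against 50.44, 50.32 and 51.44 CPM in vehicle. MRPL15 (-0.19), MRPL17 (-0.19), MRPS9 (-0.17), MRPS23 (-0.17) and MRPS12 (-0.17) followed. The count was 3 to 4 without high replicate 1 or 3 or without vehicle replicate 2 or 3. At Schisandrae Fructus low 9 fell (11.5%) beside 3.98% of all genes and 7.24% of those of at least 10 CPM, led by MRPS12 (-0.29), MRPL33 (-0.26) and MRPL51 (-0.25), and 0 rose beside 2.36%. That count was 3 without low replicate 2 and 5 without low replicate 1 or vehicle replicate 3. At an unadjusted p under 0.05 there were 22 of 78 members at the high and 23 at the low dose, beside 3942 and 3402 of the 18228 genes tested. DESeq2 called 7 and 9 lower and 0 higher.

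Longan Arillus and Zizyphi Semen, the extracts of set 10, showed members in both directions. At Longan Arillus high 7 fell (8.97%) beside 8.26% and 2 rose (2.56%) beside 5.55%; at the low dose 17 fell (21.8%) beside 13.9% and 4 rose (5.13%) beside 11.2%. Among genes of at least 10 CPM 14.3% fell at the high and 23.9% at the low dose, both above the share of the members. At Zizyphi Semen high 15 fell (19.2%) beside 12.8% and 6 rose (7.69%) beside 9.29%; at the low dose 26 fell (33.3%) beside 14.6% and 2 rose (2.56%) beside 12.1%. Among genes of at least 10 CPM 21.5% fell at the high dose and 24.5% at the low dose. The members' median log2 fold changes were -0.011 and -0.022 for Longan Arillus high and low and -0.028 and -0.052 for Zizyphi Semen high and low. The count of calls was 5 without Longan Arillus high replicate 2 and 13 without Longan Arillus low replicate 2.

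MRPS25 fell most at Zizyphi Semen high, to 41.42, 38.78 and 37.41 CPM, against 50.44, 50.32 and 51.44 CPM in vehicle (log2 fold change -0.38, SE 0.05, adjusted p = 9.45e-08 in edgeR). MRPS25 was lower in every one of these libraries than in any vehicle library. MRPL33 (-0.36), MRPS12 (-0.33), MRPL13 (-0.31), MRPL54 (-0.31) and MRPS23 (-0.30) came next. At Zizyphi Semen low MRPL54 led at -0.43, with 6.151, 6.29 and 6.812 CPM, against 9.586, 8.748 and 7.593 CPM in vehicle; its level was the lowest of all members and its standard error was 0.11. MRPS30, a large-subunit protein despite its name, fell in Longan Arillus high (-0.20) and low (-0.34) and in Zizyphi Semen high (-0.29) and low (-0.26). Among those that rose, MRPL37 reached 97.65, 95.25 and 97.29 CPM at Zizyphi Semen high, against 87.45, 85.85 and 85.31 CPM in vehicle (0.16, SE 0.04, adjusted p = 0.000805 in edgeR). MRPL9 (0.16), MRPS11 (0.14), MRPL32 (0.13), MRPS2 (0.12) and MRPS18B (0.11) rose there too. MRPL32 (0.17) and MRPL50 (0.15) rose at Longan Arillus high. MRPL37 and MRPL50 rose most often, in 3 comparisons each, and both are large-subunit proteins specific to mitochondria.

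**Figure D3:**
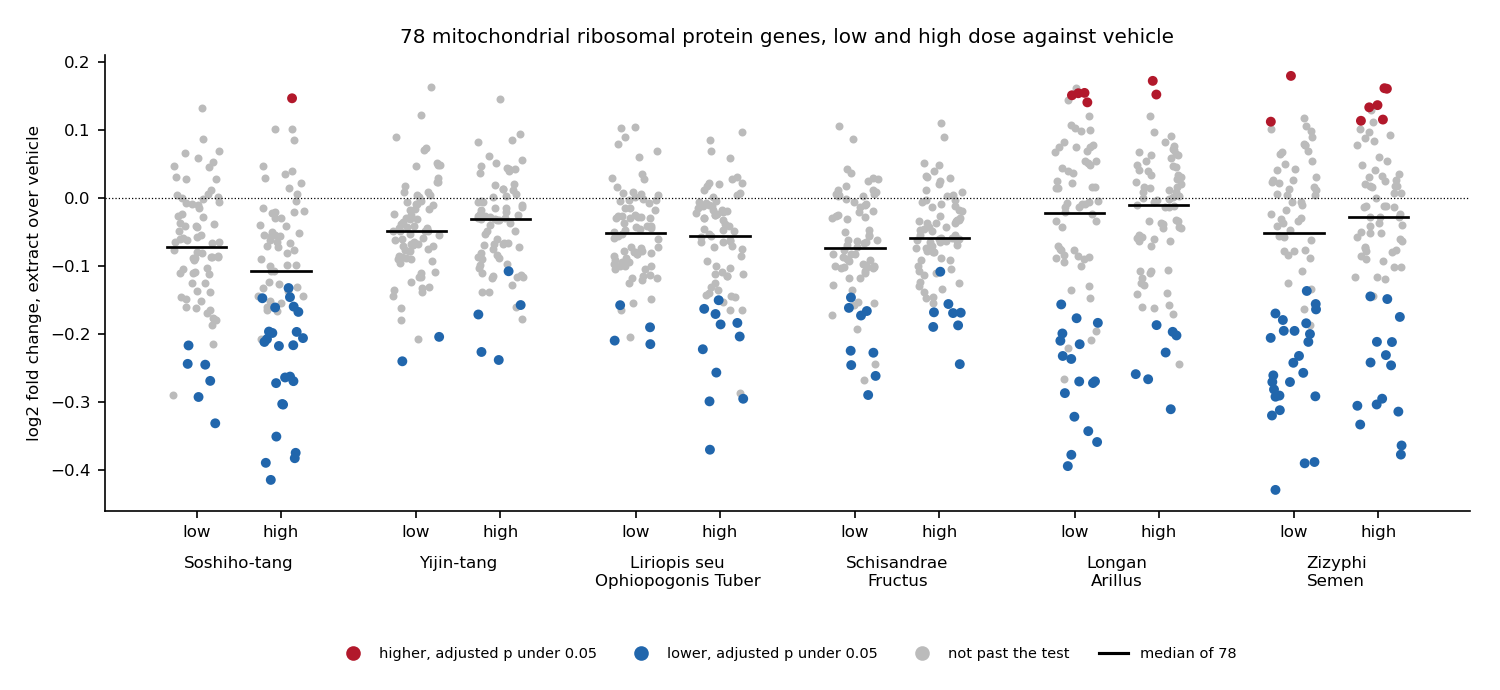
Log2 fold change of each of the 78 genes against vehicle at the low and high dose of the 6 replicated extracts; coloured points passed an adjusted p under 0.05 in edgeR and the line is the median of the 78. All 12 medians lie at or under 0, from -0.107 at Soshiho-tang high to -0.011 at Longan Arillus high.

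MRPS18A, MRPS18B and MRPS18C encode 3 relatives of a single bacterial protein, S18. In vehicle they stood at 26.56 ± 0.5203, 59.53 ± 3.549 and 21.02 ± 0.8817 CPM (SD, n = 3). MRPS18B rose at Zizyphi Semen high (65.16, 64.25 and 64.61 CPM) and at Longan Arillus low (63.77 and 67.82 CPM), against 58.86, 63.37 and 56.37 CPM in vehicle. MRPS18A and MRPS18C passed the test in no comparison with vehicle, with log2 fold changes of -0.10 to 0.16 and -0.09 to 0.04.

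The high dose against the low dose of the same extract, within 1 library set, changed few members. With Soshiho-tang 5 fell (6.41%) beside 4.49% of all genes and 7.91% of those of at least 10 CPM, and 1 rose beside 5.02%. MRPL39 had 18.55 and 17.38 CPM at the high dose, against 21.74 and 21.49 CPM at the low dose (log2 fold change -0.27, SE 0.08, adjusted p = 0.0196 in edgeR). MRPL32 had 36.75 and 33.83 CPM at the high dose, against 43.26 and 40.95 CPM at the low dose (-0.26). MRPL50 (-0.23), MRPL18 (-0.21) and MRPL30 (-0.18) also fell, and MRPL55 rose to 18.51 and 20.58 CPM at the high dose, against 16.21 and 15.13 CPM at the low dose (0.32, SE 0.09). In none of these 6 did the high-dose and low-dose libraries overlap, with 2 against 2. The test chose the 6 from these same libraries, so this is a description and no separate support. Without Soshiho-tang high replicate 3 the count was 0, without low replicate 2 it was 1 and without high replicate 2 it was 3.

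In the other 5 extracts edgeR called 0 members between the high and the low dose, and so did DESeq2. At an unadjusted p under 0.05 there were 5 of 78 with Yijin-tang, 3 with Liriopis seu Ophiopogonis Tuber, 8 with Schisandrae Fructus, 9 with Longan Arillus and 9 with Zizyphi Semen. In the same order, 1599, 941, 2233, 1948 and 1975 of the 18228 genes tested had such a p. The members' share was below that of all genes with Yijin-tang, Liriopis seu Ophiopogonis Tuber and Schisandrae Fructus. It was slightly above with Longan Arillus and Zizyphi Semen. The shares of all genes that rose and fell were 0.477% and 0.51% with Yijin-tang, 0% and 0% with Liriopis seu Ophiopogonis Tuber, 0.911% and 0.625% with Schisandrae Fructus, 0.011% and 0.0768% with Longan Arillus, and 0.45% and 0.702% with Zizyphi Semen. Without Schisandrae Fructus high replicate 3 the count there was 1.

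Pairs of extracts of 1 set can be compared at the same 500 µg/mL, which also tests whether their differences from vehicle differ. Yijin-tang high exceeded Soshiho-tang high in 9 of 78 members (11.5%) beside 3.87% of all genes and 6.81% of those of at least 10 CPM, and was below it in 0 beside 4.5%. MRPL14 had 21.26, 20.77 and 20.65 CPM with Yijin-tang high, against 16.22 and 17.11 CPM with Soshiho-tang high (log2 fold change 0.33, SE 0.08, adjusted p = 0.00526 in edgeR). MRPL32 had 42.24, 42.96 and 41.3 CPM with Yijin-tang high, against 36.75 and 33.83 CPM with Soshiho-tang high (0.26, SE 0.06, adjusted p = 0.00169). MRPS17 (0.27), MRPL13 (0.24), MRPL27 (0.23), MRPL36 (0.21), MRPS25 (0.19), MRPL50 (0.19) and MRPL35 (0.15) were higher as well. For each of the 9, the 3 Yijin-tang libraries lay above both Soshiho-tang libraries. The test chose the 9 from these same libraries, so this is a description and no separate support. Of the 9, 6 are large-subunit proteins shared with bacteria. At an unadjusted p under 0.05 there were 25 of 78 members in either direction, beside 3648 of the 18228 genes tested. DESeq2 called 9 higher and 0 lower. The count was 1 without Soshiho-tang high replicate 2, 4 without Soshiho-tang high replicate 3 and 4 without Yijin-tang high replicate 2. With set and replicate number as a block, 6 were higher and 1 lower.

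**Figure D4:**
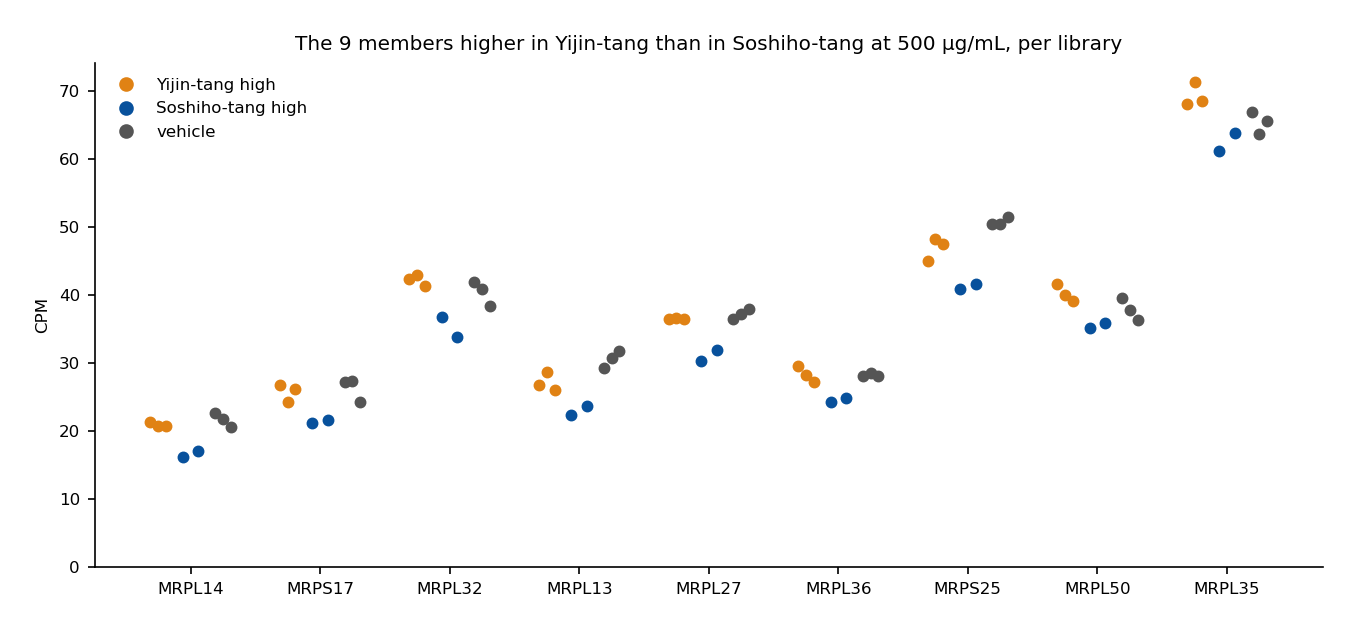
CPM per library of the 9 genes higher with Yijin-tang than with Soshiho-tang at 500 µg/mL, with the vehicle libraries beside them. In all 9, which the test chose from these same libraries, the Soshiho-tang points are under the Yijin-tang points, as in MRPL14 (16.22 and 17.11 CPM under 20.65 to 21.26 CPM).

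Schisandrae Fructus high exceeded Liriopis seu Ophiopogonis Tuber high in MRPL33 (30.09, 32.26 and 32.97 CPM, against 27.3, 26.6 and 24.41 CPM; log2 fold change 0.28, SE 0.07, adjusted p = 0.0119 in edgeR) and in MRPS16 (0.15, adjusted p = 0.0452). That is 2.56% of members beside 1.77% of all genes and 3.12% of those of at least 10 CPM, and 0 were lower beside 1.2%. Both calls were lost without Schisandrae Fructus high replicate 2 or without Liriopis seu Ophiopogonis Tuber high replicate 3, and the count was 1 without replicate 1 of either. Longan Arillus high exceeded Zizyphi Semen high in MRPS25 alone (50.32, 46.31 and 43.26 CPM, against 41.42, 38.78 and 37.41 CPM; 0.25, SE 0.05, adjusted p = 0.00189), 1.28% beside 0.274% of all genes and 0.477% of those of at least 10 CPM, and 0 were lower beside 0.444%. That call was lost without Longan Arillus high replicate 1. In each of these pairs 7 of 78 members had an unadjusted p under 0.05. That share was below those of all genes, 2881 and 1829 of the 18228 tested. DESeq2 called 2 and 1 higher and 0 lower.

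Polygalae Radix and Aucklandiae Radix, both roots, had 1 library per dose, so their differences have no replicate check and no test. Log2 ratios to the vehicle mean were taken with 1 CPM added, and members past 0.32 on that scale in either direction were counted. At Polygalae Radix high, 51 of 78 lay lower by that measure (65.4%) beside 27.5% of all genes tested and 39.4% of the 9173 protein-coding genes of at least 10 CPM, and 1 lay higher beside 27.3%. The median log2 ratio of the members was -0.543, against 0.011 over all genes tested. At its medium dose 14 were lower (17.9%) beside 11.2% of all genes and 14.7% of the 9173, and 1 higher beside 10.5%. At its low dose 13 were lower (16.7%) beside 6.46% of all genes and 6.81% of the 9173, and 0 higher beside 8.2%. At Aucklandiae Radix high 19 were lower (24.4%) beside 14% of all genes and 17.5% of the 9173, and 0 higher beside 16.1%. At its medium dose 6 were lower (7.69%) beside 7.86% of all genes and 8.48% of the 9173, and 0 higher beside 7.54%. At its low dose 4 were lower (5.13%) beside 8.27% of all genes and 9.24% of the 9173, and 0 higher beside 8.47%.

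MRPL24 and MRPL28, large-subunit proteins with bacterial counterparts, were furthest below vehicle at Polygalae Radix high. MRPL24 had 23.68 CPM there, against a vehicle mean of 71.19 CPM (log2 ratio -1.55), and MRPL28 had 20.26 CPM, against 57.12 CPM (-1.45). MRPL23 (-1.21), of the exit tunnel's rim, MRPS34 (-1.16), MRPS9 (-1.15), MRPL54 (-1.15), MRPL2 (-1.11), near the peptidyl transferase centre, and MRPL41 (-1.08) followed. By role, 21 of 30 large-subunit proteins shared with bacteria were lower by that measure (median -0.643), 11 of 21 specific to mitochondria (-0.528), 11 of 16 small-subunit proteins shared with bacteria (-0.380) and 8 of 10 specific to mitochondria (-0.666). MRPL50 went the other way, at 52.33 CPM, against 37.89 CPM in vehicle (0.455), and stood at 43.79 and 49.61 CPM at the low and medium dose. MRPL33 had 23.55, 25.78 and 27.87 CPM from the low to the high dose of Polygalae Radix, against 33.75 CPM in vehicle, and had the lowest ratio of all at Aucklandiae Radix high (20.25 CPM, -0.71). MRPL51 (85.37 CPM, -0.67) and MRPL14 (14.1 CPM, -0.585) followed there.

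Within their own set, Polygalae Radix high lay lower than its low dose by the same measure in 41 members (52.6%). Of all genes 27.6% lay lower, and of the protein-coding genes of at least 10 CPM 37.2%. It lay higher in 3 members beside 25.6% of all genes. Aucklandiae Radix high lay lower than its low dose in 15 (19.2%) beside 11.2% of all genes and 10.7% of those of at least 10 CPM. It lay higher in 0 beside 13.8%. Scaling bears on these values. With plain library totals, 12 members in place of 19 lay lower than vehicle at Aucklandiae Radix high, beside 11.2% of all genes, and 1 lay higher. Polygalae Radix high had a TMM factor of 1.24. With plain library totals 34 members lay lower against vehicle, beside 17.8% of all genes, and 7 lay higher (median -0.246, against 0.220 over all genes tested). The sum was then 88.1% in place of 71.0% of vehicle. By plain totals 20 in place of 41 lay under the low dose (median -0.063, against 0.223 over all genes tested). The share of all genes that did so by plain totals was not counted. In the same library the epithelial markers summed to 1316 CPM, against 8414 to 8803 CPM in vehicle, and the log2 ratio to vehicle rose by 0.134 per doubling of transcript length, against -0.099 to 0.053 in the replicated libraries; their part in the members' values was not tested.

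**Figure D5:**
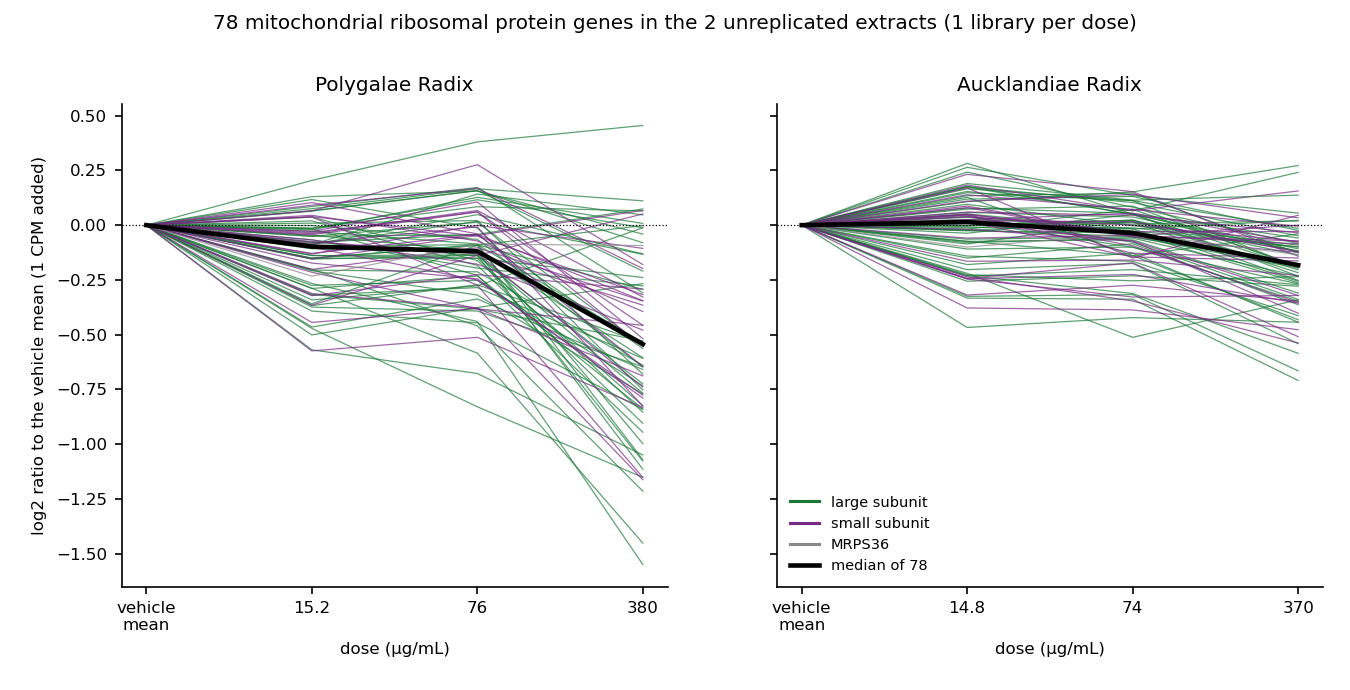
Log2 ratio to the vehicle mean (1 CPM added) of each of the 78 genes at the 3 doses of Polygalae Radix and Aucklandiae Radix, with the vehicle mean at 0 on the left; the black line is the median. The median reaches -0.543 at 380 µg/mL Polygalae Radix and -0.183 at 370 µg/mL Aucklandiae Radix.

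The other genes of mitochondrial translation were read from fixed lists. Of the 5 mitoribosomal proteins without an MRPL or MRPS symbol, AURKAIP1, a small-subunit protein, fell at the high dose of Soshiho-tang (-0.30), Liriopis seu Ophiopogonis Tuber (-0.22), Longan Arillus (-0.28) and Zizyphi Semen (-0.29) and at the low dose of Longan Arillus (-0.41) and Zizyphi Semen (-0.38). CHCHD1 fell at the low dose of Longan Arillus (-0.34) and Zizyphi Semen (-0.32). DAP3 (-0.07 to 0.02), PTCD3 (-0.08 to 0.03) and GADD45GIP1 (-0.11 to 0.04) passed the test in none of the 12 comparisons with vehicle. At Soshiho-tang high, where 11.3% of all genes and 20.1% of those of at least 10 CPM fell, 9 of 19 genes of mitochondrial transcription and RNA stability fell, among them TEFM (-0.33), the transcription elongation factor, ELAC2 (-0.26), which trims tRNA ends, and TFB2M (-0.24), a transcription initiation factor. Of 25 mitoribosome assembly factors, 7 fell, led by RCC1L (-0.32), MRM3 (-0.31), an rRNA methyltransferase, and FASTKD2 (-0.27). In the other 11 comparisons with vehicle at most 5 genes of either list fell. The 5 of each were at Longan Arillus low, where 13.9% of all genes and 23.9% of those of at least 10 CPM fell. Of 15 translation factors only TSFM, which recharges elongation factor Tu, fell at Soshiho-tang high (-0.28). At the other high doses 4 of the 15 fell with Zizyphi Semen, beside 12.8% of all genes and 21.5% of those of at least 10 CPM. With Liriopis seu Ophiopogonis Tuber 2 fell beside 4.65% of all genes, and with Schisandrae Fructus 1 fell beside 4.92%. With Longan Arillus 1 rose beside 5.55%. Of 9 measured regulators of mitochondrial biogenesis, PPARGC1B (-0.33), NRF1 (-0.26) and GABPB1 (-0.18) fell at Soshiho-tang high, and MYC rose there (0.18). With Yijin-tang high against Soshiho-tang high, the assembly factors MRM3 (0.31), RCC1L (0.22) and FASTKD2 (0.21) and the tRNA-processing genes KIAA0391 (0.22) and ELAC2 (0.17) were higher. NGRN (-0.11), an assembly factor, OXA1L (-0.14), the inner-membrane insertase, and MYC (-0.13) were lower.

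The 13 protein-coding genes of mitochondrial DNA, whose messages these ribosomes translate, lay mostly above vehicle. At Zizyphi Semen high 12 of 13 rose beside 9.29% of all genes, with MT-ND2 at 0.84 and MT-ND1 at 0.83, with a median of 0.614; at Longan Arillus low 11 rose beside 11.2% and at Zizyphi Semen low 11 rose beside 12.1%. At Longan Arillus high 8 rose beside 5.55% and at Liriopis seu Ophiopogonis Tuber high 6 beside 2.62%. In each of the other comparisons with vehicle at most 1 rose, except at Soshiho-tang high, where 3 rose beside 10.2%, MT-CYB at 0.57, MT-ND4 at 0.56 and MT-CO2 at 0.40, and the median over the 13 was 0.35, against 0.048 at Yijin-tang high. Between the pair, MT-CYB (-0.52) and MT-ND4 (-0.51) were lower with Yijin-tang high than with Soshiho-tang high. These mRNAs made up 8.60% to 8.88% of counts in vehicle and 8.06% to 15.1% in the 52 libraries of replicated groups, and over those libraries the share and the members' summed CPM had Pearson's r = -0.35, a description of libraries that share sets and groups. PPARGC1B and ESRRA, a coactivator and a nuclear receptor of mitochondrial biogenesis, fell at both doses of Longan Arillus (-0.37 and -0.30 high, -0.37 and -0.38 low) and of Zizyphi Semen (-0.28 and -0.27 high, -0.34 and -0.37 low). Of the same list, PPRC1, a coactivator related to PPARGC1B, rose at Longan Arillus low (0.18) and at Zizyphi Semen high (0.18) and low (0.14), MYC rose at Zizyphi Semen high (0.10) and NRF1 fell at Longan Arillus low (-0.21).

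These calls depend on leaving out the 2 libraries that stood apart. With both in the edgeR fit, 0 members were called against vehicle in 10 of the 12 comparisons, 1 at Zizyphi Semen high, and 40 at Longan Arillus low, where 39 were higher than vehicle; Longan Arillus low replicate 3 is one of the 2. In that group MRPS12 then stood at 0.83 on the log2 scale above vehicle, in place of -0.36. The share of all genes called in that fit is not given here, so the 39 do not show a rise particular to the members. In the other comparisons with vehicle the log2 fold changes of the 5 genes called most often hardly moved. MRPS12 at Soshiho-tang high had -0.372 in place of -0.375, with an adjusted p of 0.692 in place of 1.17e-05 in edgeR.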

How the data were processed

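Gene-level expected counts were deposited by the authors for 60 libraries. The submitters' processing notes name build hg38 (GRCh38) and the tools RSEM 1.3.3, STAR 2.7.3a, FastQC 0.11.9 and Trim Galore 0.6.5, without their settings. Per the labels' protocols, libraries were directional and read as 100 bp pairs. The sources used here name neither the strand setting used to assign reads nor the release of the annotation. Of the deposited expected counts, 10.485% were not whole and were rounded. Gene names, types and lengths came from GENCODE 29.

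The counts of 18228 genes kept by filterByExpr, in 52 libraries of 19 groups, were fitted with edgeR 4.0.16 (limma 3.58.1, R 4.3.3; TMM, robust quasi-likelihood, group means only), and 21 comparisons were tested at a Benjamini-Hochberg adjusted p under 0.05. CPM used TMM factors over 58 libraries. Totals were 18.003 to 33.832 M counts. The alternatives were DESeq2 1.42.0, RLE factors, no filter, the 2 left-out libraries, replicate blocks, each library left out, another gene length, plain totals and a 1.5-fold threshold. Scripts were tested on simulated counts.

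The genes, lists, motifs and comparisons were chosen with earlier results of these data known. Named members are the 3 highest and 3 lowest per kb, up to 6 called per direction and comparison, the 5 called most often, the 3 widest and 3 narrowest in group means, and MRPS18A to C. MRPL14 and MRPL50 in single libraries were named after their values were seen. Where called members' libraries are said not to overlap, the test chose those members from the same libraries, so it is no separate support. Medium doses were not tested. The 9438 genes of at least 10 CPM were counted after seeing the data.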

Additional observations from a re-analysis of the deposited data

Results flagged for a closer look

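Between Yijin-tang and Soshiho-tang at 500 µg/mL, extracts of 1 library set, the test of the difference itself passed in 9 genes. That is 11.5% of members beside 3.87% of all genes and 6.81% of those of at least 10 CPM. In these genes the 2 extracts' differences from vehicle differed in this fit, but the count was 1 without Soshiho-tang high replicate 2. The log2 differences, Yijin-tang minus Soshiho-tang, were 0.33 for MRPL14, 0.27 for MRPS17, 0.26 for MRPL32, 0.24 for MRPL13, 0.23 for MRPL27, 0.21 for MRPL36, 0.19 for MRPS25, 0.19 for MRPL50 and 0.15 for MRPL35. The same test passed for MRPL33 (0.28) and MRPS16 (0.15) between Schisandrae Fructus and Liriopis seu Ophiopogonis Tuber, beside 1.77% of all genes. It passed for MRPS25 (0.25) between Longan Arillus and Zizyphi Semen, beside 0.274%. Each of these calls was lost when some single library was left out. In the 2 libraries left out of every comparison the 78 genes summed to 5989 CPM (Soshiho-tang medium replicate 3) and 7834 CPM (Longan Arillus low replicate 3), above the 3810 to 3868 CPM of vehicle. In the first, 76 of the 78 genes lay above and 0 below the vehicle range, and in the second 66 lay above and 11 below. The same was not counted over all genes, so these counts do not show a rise particular to the members. In the first the log2 ratio to vehicle changed by -0.451 per doubling of transcript length, and its part in the members' values was not tested.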

How the results depend on the processing

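With the 2 left-out libraries in the fit, the count of members called was 0 at the high dose of Soshiho-tang, Yijin-tang, Liriopis seu Ophiopogonis Tuber, Schisandrae Fructus and Longan Arillus, 1 at Zizyphi Semen high, 40 at Longan Arillus low, 0 at the other 5 low doses, 0 between Soshiho-tang high and low, 38 between Longan Arillus high and low, and 0 in the 3 pairs at the high dose; at Longan Arillus low MRPL13 (0.32), MRPL33 (0.66), MRPS12 (0.83) and MRPL51 (0.95) turned positive, and the cause was not tested. The shares of all genes called with the 2 left-out libraries in the fit are not given here, so the 40 and 38 do not show a change particular to the members. Without the filter on low counts the count of members called was 3 at Yijin-tang high, 5 at Schisandrae Fructus high and 5 for Yijin-tang against Soshiho-tang. With DESeq2 it was 4 at Yijin-tang low. Leaving out each library in turn gave 12 to 23 at Soshiho-tang high, 0 to 5 at Yijin-tang high, 3 to 12 at Liriopis seu Ophiopogonis Tuber high, 3 to 6 at Schisandrae Fructus high, 5 to 12 at Longan Arillus high, 1 to 6 at Soshiho-tang low, 0 to 1 at Yijin-tang low, 0 to 3 at Liriopis seu Ophiopogonis Tuber low, 3 to 10 at Schisandrae Fructus low, 13 to 19 at Longan Arillus low, 0 to 5 between Soshiho-tang high and low, 0 to 1 between Schisandrae Fructus high and low, and 1 to 7, 0 to 2 and 0 to 1 in the 3 pairs; a group left with 1 library is assumed to vary like the others. Of 95 calls of named members, 36 held in every alternative on the 52 libraries. Same-numbered replicates correlated at -0.069 to 0.06, so no effect shared by replicate number was seen. Whether the numbers pair the samples is not stated. A replicate block gave 11 calls at Longan Arillus high, 7 at Soshiho-tang low and 23 at Longan Arillus low, and within a set 7 for Yijin-tang against Soshiho-tang. With plain library totals the summed level was 91.1% of vehicle at Soshiho-tang high, 88.1% at Polygalae Radix high and 91.0% at Aucklandiae Radix high, and 20 and 3 members lay lower between the high and low dose of Polygalae Radix and Aucklandiae Radix. The share of all genes lower between these doses by plain totals was not counted. Past 1.5-fold with TMM-scaled totals, 24 and 0 members lay lower between the same doses, beside 16.4% and 2.99% of all genes tested. Against vehicle, 2 and 0 members lay lower past 1.5-fold at Polygalae Radix medium and low, beside 2.97% and 1.12% of all genes. At Aucklandiae Radix high, medium and low 3, 0 and 0 did, beside 3.94%, 1.97% and 2.13%. Every member averaged over 8 CPM in vehicle; depth was not varied, so what it limits was not measured.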
